A study of Rattus norvegicus with 6 samples.

Results

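The p38 MAP kinases and the kinases that act on either side of them were measured in dermal fibroblasts of the rat, connective tissue cells grown in culture that secrete collagen. The 10 genes were the p38 kinases Mapk14, Mapk11 and Mapk12, their activating kinases Map2k3 and Map2k6, the effector kinases Mapkapk2, Mapkapk3 and Mapkapk5, the phosphatase gene Dusp1 and the substrate gene Hspb1. Each array probe was assigned to a gene by its RefSeq accession, and all 10 genes, of 15168 named genes with a probe, had at least 1; together they had 12 probes, with 2 for Mapk11 and for Mapkapk2 and 1 for each of the other 8. All 10 genes passed the filter on dim probes, for which a probe had to stand well above background throughout 1 of the groups (3 arrays). Mapkapk3 was selected on its log2 fold change, higher in the knockdown arrays of this same comparison, so its difference is described here without a test; the other 9 genes were taken for their place in its pathway, to see whether they shared that difference.

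All 6 samples were infected with a lentivirus (multiplicity of infection 10) and kept for 48 h in 2 µg/mL puromycin, an antibiotic that kills cells lacking a resistance gene. In the control group (n = 3) the virus was a control lentivirus, and in the knockdown group (n = 3) it encoded an shRNA, a hairpin that lowers its target by RNA interference, directed at the non-coding transcript lnc-URIDS. No probe named here carries the name lnc-URIDS, so its level was not checked, and the labels name neither the strain of rat nor whether the samples came from separate cultures; the spread that the p-values rest on is that among these samples and may be technical only. Each sample was hybridised to 1 one-colour array. Signals are given as log2 of the processed intensity minus the log2 of the array's 75th percentile, which lay between 1494 and 1612 intensity units, and a difference is knockdown minus control on that scale. Per array, 20900 to 22490 probes stood well above background and 0 gene spots were saturated. Precision is limited by having 3 arrays a group. By the identifiers in the file headers, slide 2 held control 3 with knockdown 1, and slide 1 the remaining 4 arrays.

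The p38 pathway is a 3-step kinase relay that cells switch on under stress, and in response to cytokines. A MAP kinase kinase kinase phosphorylates MKK3 or MKK6 (from Map2k3 and Map2k6), these phosphorylate p38, and p38 phosphorylates transcription factors and the kinases MK2, MK3 and MK5 (from Mapkapk2, Mapkapk3 and Mapkapk5). MK2 and MK3 are close relatives that stabilise inflammatory mRNAs and phosphorylate the small heat shock protein HSP27 (from Hspb1), which acts on actin; DUSP1 removes the activating phosphates from p38. The pathway is regulated mainly by phosphorylation, which an expression array does not read.

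To place the genes by their upstream sequence, stretches before the annotated gene start are given for the member that stood apart, Mapkapk3, for its close relative Mapkapk2, and for the stress-response genes Dusp1 and Hspb1. The sequences are RefSeq's, build GRCr8, written 5′ to 3′ on the gene's strand, and the first 2 end at the base before the start. Capitals mark matches to 5 motifs searched on both strands in the 250 bases before the start: the cyclic AMP response element TGACGTCA, its shorter core TGACG (which every TGACGTCA also holds), the paired heat shock unit GAANNTTC, the E-box CACGTG, and the AP-1 motif TGANTCA. The motifs were chosen with the sequences in view.
Mapkapk3, chr8:116842229-116842318, minus strand: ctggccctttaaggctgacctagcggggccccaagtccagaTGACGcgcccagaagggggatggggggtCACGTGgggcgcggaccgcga
Mapkapk2, chr13:45112327-45112416, minus strand: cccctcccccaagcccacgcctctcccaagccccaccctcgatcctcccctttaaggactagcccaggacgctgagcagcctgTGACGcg
Dusp1, chr10:17184673-17184752, plus strand: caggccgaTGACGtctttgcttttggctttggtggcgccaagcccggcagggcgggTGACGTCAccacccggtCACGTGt
Hspb1, chr12:26432382-26432441, minus strand: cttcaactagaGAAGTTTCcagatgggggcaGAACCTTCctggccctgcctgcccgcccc
Mapkapk3 held TGACG 49 bases and CACGTG 21 bases before its start, and Mapkapk2 held TGACG 7 bases before its start and no CACGTG. Of the 9 members in the sequence table, 3 held CACGTG (Mapkapk3, Dusp1 and Mapk12) and 3 held TGACG, against 5.59% and 18.2% of 33469 promoters of the same length. The 33469 were not restricted to genes with a probe or above background, so they are an unlike set, and enrichment was not tested. Only Dusp1 held the full TGACGTCA (1.59% of promoters), only Hspb1 held GAANNTTC (7.23%), in 2 copies, and none held TGANTCA (6.34%). These are matches of letters, not measured sites.

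Across the array as a whole, limma called 0 of 18464 features (0%), higher or lower, at the adjusted p threshold of 0.05; a feature is a named gene, represented by its brightest tested probe, or an unnamed transcript. At an unadjusted p under 0.05, 2611 features (14.1%) differed, 5.90% higher and 8.24% lower in knockdown. The median log2 fold change of all features was -0.00695, and 47.2% had higher means in knockdown. Among the members other than Mapkapk3, 0 of 9 passed the adjusted limma test and 0 of 9 had an unadjusted p under 0.05, with adjusted p from 0.433 to 0.983. The mean was higher in knockdown for 7 of them and lower for 2, and their median log2 fold change was 0.08. Of the 7, Mapk12 passed the filter only through the knockdown group.

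The activating kinases did not pass. Map2k3, which encodes MKK3, had log2 signals of 2.51, 2.61 and 2.52 in controls 1, 2 and 3, and of 2.58, 2.48 and 2.53 in knockdown 1, 2 and 3. The groups overlapped almost completely, and the log2 fold change was -0.01 ± 0.05 (SE, 3 against 3 arrays), with a 95% confidence interval from 0.906-fold to 1.08-fold. Map2k6, which encodes MKK6, was dim, at 21.1 to 34.6 intensity units. Its log2 signals were -5.43, -6.26 and -5.92 in the controls and -5.77, -5.47 and -5.49 in knockdown. Control 1 was the highest and control 2 the lowest of the 6, so the groups overlapped, and the log2 fold change of 0.30 ± 0.22 had an interval from 0.845-fold to 1.78-fold.

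The p38 kinases themselves also did not pass. Mapk14, which encodes p38 alpha, the form that most cells rely on, had log2 signals of 2.52, 2.60 and 2.54 in the controls and 2.58, 2.53 and 2.57 in knockdown. Its log2 fold change was 0.005 ± 0.04 (SE, 3 against 3 arrays), with an interval from 0.930-fold to 1.08-fold. Mapk11, which encodes p38 beta, had -2.81, -3.18 and -2.47 in the controls and -2.45, -2.82 and -2.93 in knockdown on its brighter probe. Both groups spread widely and overlapped, with a log2 fold change of 0.09 ± 0.21. Control 3 and knockdown 1, the arrays of slide 2, were the highest, and with slide as a block the value was 0.09 ± 0.11. The second probe, near background at 15.2 to 24.4 intensity units, had 0.08 ± 0.18.

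Mapk12, which encodes p38 gamma and lies next to Mapk11 in the RefSeq gene order, was the only member with a large mean difference besides Mapkapk3, and the least certain. It was well above background on 2 of 3 control and 3 of 3 knockdown arrays, at 7.60 to 21.1 intensity units. It thus passed the filter only through the knockdown group, where its mean is higher, so its difference and interval are no support for a higher signal. Its log2 signals were -6.74, -7.73 and -6.43 in the controls and -6.21, -6.17 and -6.46 in knockdown. Control 3 lay above knockdown 3, so the groups overlapped, and control 2 stood far below the rest. The log2 fold change was 0.68 ± 0.34 (SE, 3 against 3 arrays; limma adjusted p = 0.433), with an interval from 0.901-fold to 2.87-fold, and 0.30 without control 2. It was 0.92 within slide 1 and 0.21 within slide 2. With a normexp background it was 0.49, and 0.15 with quantile scaling added.

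Mapkapk3, which encodes the effector kinase MK3, had log2 signals of -0.91, -1.51 and -1.16 in controls 1, 2 and 3, and of -0.31, -0.26 and -0.23 in knockdown 1, 2 and 3. Every knockdown array lay above every control array, as for 9.94% of all features. The knockdown arrays were nearly equal (SD 0.043) while the controls were spread (SD 0.300). The mean difference was 0.92 ± 0.15 (SE, 3 against 3 arrays), a 1.90-fold signal. Of 18464 features, 45 (0.244%) had a log2 fold change at least as large. The processed intensity of the probe was 568 to 1291 units, against a median local background of 20 to 26 units, and the probe passed the scanner's background test in all 6 samples. Since 1 probe in 1 spot stands for the gene, no second probe checks this value. The spot carried 0 outlier flags, and the 151 well-measured gene spots within 10 rows and 5 columns of it had a median difference of -0.00391. Within slide 1 the Mapkapk3 difference was 0.96 and within slide 2 it was 0.85. Without control 2, the lowest array, it was 0.77, and without control 1 it was 1.07.

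Mapkapk2, which encodes MK2, the closest relative of MK3, did not share that difference. Its brighter probe had log2 signals of 1.97, 1.82 and 1.86 in the controls and 1.80 and 1.90 in knockdown 1 and 2; the spot of knockdown 3 carried an outlier flag and was left out of the fit. The log2 fold change was -0.04 ± 0.07 (SE, n = 3 and 2), with an interval from 0.856-fold to 1.11-fold. The second probe, measured on all 6 arrays, had -1.08, -1.15 and -1.13 in the controls and -1.24, -1.17 and -1.18 in knockdown. On that probe all knockdown arrays lay below all controls, as for 11.9% of all features, by a log2 difference of -0.08 ± 0.04, and its interval ran from 0.878-fold to 1.02-fold. The mean of either probe was lower in knockdown, although that of the brighter probe was 0.0010 higher within slide 1.

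Mapkapk5, which encodes the more distant effector MK5, had log2 signals of -0.30, -0.46 and -0.49 in the controls and -0.35, -0.37 and -0.38 in knockdown. Control 1 was the highest array and the groups overlapped, with a log2 fold change of 0.05 ± 0.06 (SE, 3 against 3 arrays) and an interval from 0.930-fold to 1.15-fold.

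The phosphatase and the substrate had slightly higher means, with overlapping groups. Dusp1, an immediate early gene whose product switches p38 off, had log2 signals of 0.39, 0.27 and 0.26 in the controls and 0.47, 0.36 and 0.42 in knockdown. Control 1 lay above knockdown 2, and the log2 fold change was 0.11 ± 0.06 (SE, 3 against 3 arrays; limma adjusted p = 0.446), with an interval from 0.980-fold to 1.19-fold. Hspb1 had 3.59, 3.34 and 3.45 in the controls and 3.49, 3.61 and 3.54 in knockdown, a log2 fold change of 0.08 ± 0.08 with an interval from 0.929-fold to 1.21-fold.

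**Figure D1:**
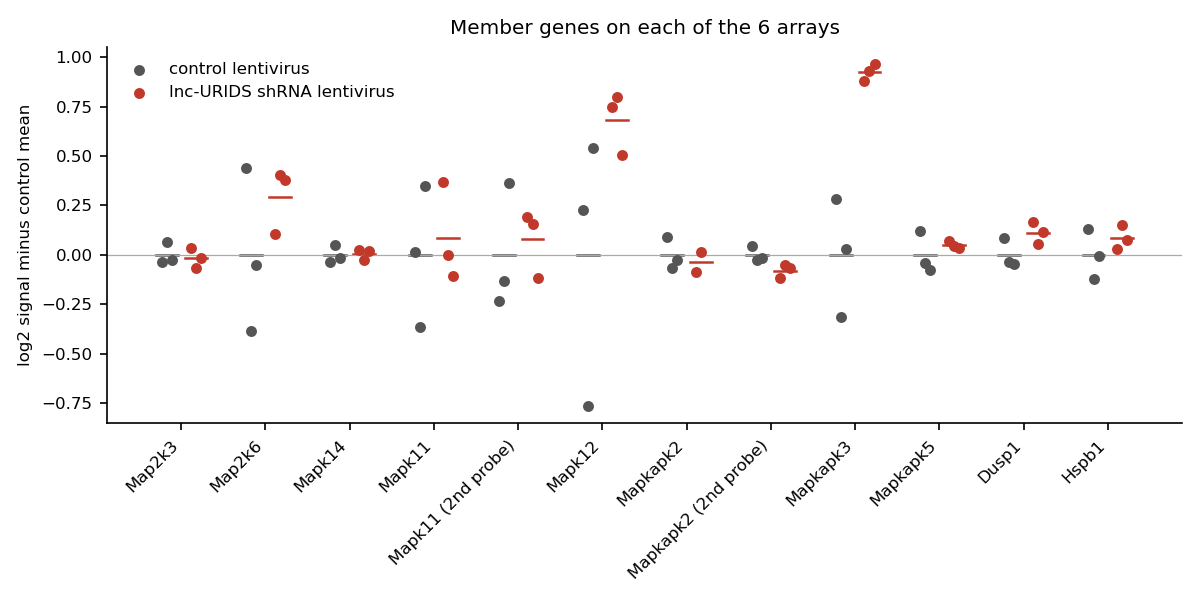
Log2 signal of each member probe on each array, minus the mean of the 3 control arrays of that probe (vertical axis); grey points are control lentivirus, red points lnc-URIDS shRNA lentivirus, and short lines are group means. The 3 red points of Mapkapk3 lie at about 0.92 above the control mean and clear of the grey points, while the groups overlap for the other genes, apart from the second probe of Mapkapk2, whose red points lie just below the grey.

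The width of the intervals differed among the other 9 members. For 6 of the 9 the 95% confidence interval lay between 0.856-fold and 1.21-fold: Map2k3, Mapk14, Mapkapk2, Mapkapk5, Dusp1 and Hspb1. The dim or variable Mapk11, Map2k6 and Mapk12 had upper bounds of 1.53-fold, 1.78-fold and 2.87-fold, so a larger difference in these genes is not excluded. The interval of Mapkapk3 is no yardstick for them, because that gene was chosen for its difference. The intervals of all 9 included no change. The signs of 4 members near 0 depended on the setting. Those of Mapk14 and Map2k3 turned under other scalings, among other settings, that of Mapk11 with array quality weights, and that of Mapkapk2 within slide 1. All 4 also turned when certain single arrays were left out.

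**Figure D2:**
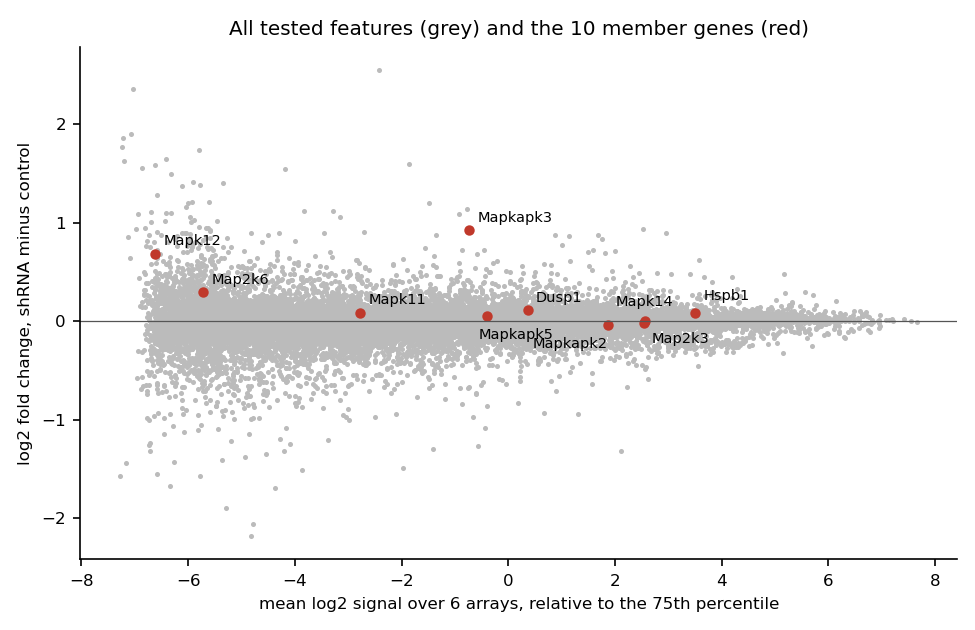
Log2 fold change, knockdown minus control (vertical axis), against the mean log2 signal over the 6 arrays relative to the array's 75th percentile (horizontal axis), for 18464 features in grey and the 10 members in red. Mapkapk3 at 0.92 lies at the upper edge of the cloud, Mapk12 at 0.68 lies at the dim edge where the spread is wide, and the other 8 members lie within the grey band.

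Other genes of the p38 pathway were taken from a list of 64 genes; 53 had a probe and 49 were tested. None of the 49 passed the adjusted limma test, and at an unadjusted p under 0.05 there were 4 higher and 3 lower, against the 5.90% and 8.24% of all features. The list's median log2 fold change was -0.02, and 21 had higher and 28 lower means. In 9 of the 49 genes the groups were free of overlap, against 21.8% of all features. Mapk13, which encodes p38 delta, had 0.05 ± 0.09 (SE, 3 against 3 arrays). Dusp2 and Dusp10, phosphatases of MAP kinases, and the cytokine genes Tnf and Il1b did not rise well above background on any of the 6 arrays.

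Upstream of the p38 kinases, the 3 Gadd45 genes, whose stress-induced proteins bind and activate the kinase MEKK4, had higher means in knockdown, with all knockdown arrays above all controls, as for 9.94% of all features; they are named because of these values. Gadd45b had log2 signals of 2.34, 1.98 and 2.00 in the controls and 2.41, 2.72 and 2.53 in knockdown. Its log2 fold change was 0.45 ± 0.13 (SE, 3 against 3 arrays; limma adjusted p = 0.237), with 0.47 within slide 1 and 0.41 within slide 2. Gadd45g had 1.41, 1.31 and 1.30 in the controls and 1.44, 1.78 and 1.80 in knockdown. For Gadd45g knockdown 1 lay just above control 1, and the log2 fold change of 0.34 ± 0.11 was 0.43 within slide 1 and 0.14 within slide 2. Gadd45a had 1.24, 1.11 and 1.11 in the controls and 1.39, 1.28 and 1.40 in knockdown, a log2 fold change of 0.21 ± 0.06, with 0.17 and 0.28 within slides 1 and 2. None of the 3 passed over all features. Each kept its sign in 18 of 18 alternatives, but so did Map3k4, Map3k3, Mef2a and Hsph1. The alternatives reuse the arrays on which these genes were singled out, so this is no support. Map3k4, which encodes MEKK4, had a lower mean, by -0.19 ± 0.05, with -2.53, -2.42 and -2.49 in the controls and -2.66, -2.63 and -2.70 in knockdown; with a normexp background this was -0.04. The other genes below an unadjusted p of 0.05 were Hsph1, a heat shock chaperone, at 0.13 ± 0.04, Map3k3, another upstream kinase, at -0.14 ± 0.05, and the transcription factor gene Mef2a, at -0.39 ± 0.14, or -0.13 with a normexp background. A dimmer second probe of Map3k3 had -0.27 ± 0.06, or 0.07 with a normexp background.

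The remaining named genes of the relay did not pass. Of the upstream kinases and adaptors, Map3k7, which encodes TAK1, had a log2 fold change of -0.10 ± 0.06 (SE, 3 against 3 arrays). Its partner Tab1 had 0.02 ± 0.04. A second probe of Tab1, near background at 16.7 to 21.4 intensity units, had -0.19 ± 0.07, and 0.28 with a normexp background, within the upward shift of dim probes. Map2k4, a kinase of both JNK and p38, had -0.05 ± 0.06, and 0.13 ± 0.14 on its second probe. Among the phosphatases Dusp16 had 0.007 ± 0.11 and Ppm1d, a p53-induced phosphatase of p38, had -0.02 ± 0.06. The other effector kinases of p38 were Rps6ka4, which encodes MSK2, and Mknk1 and Mknk2, which phosphorylate a translation factor. Rps6ka4 had -0.39 ± 0.16, but -0.06 within slide 2. With a normexp background it had 0.01, a value that carries the upward shift of dim genes. Mknk1 and Mknk2 had 0.06 ± 0.08 and -0.01 ± 0.04. The transcription factor gene Atf2 had 0.11 ± 0.07.

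Downstream of MK2, the mRNA-destabilising protein gene Zfp36 had -0.04 ± 0.11 (SE, 3 against 3 arrays) and the mRNA-stabilising Elavl1 had -0.02 ± 0.05. Of the mRNAs they control, Ptgs2, which encodes cyclooxygenase 2, had 0.08 ± 0.06. The cytokine gene Il6 had log2 signals of -4.02, -3.00 and -3.41 in the controls and -3.80, -4.47 and -4.05 in knockdown. Knockdown 1 lay above control 1, so the groups overlapped, and the log2 fold change was -0.63 ± 0.30, or -0.23 with a normexp background. The small heat shock genes Cryab and Hspb8 had -0.10 ± 0.04 and -0.85 ± 0.50. The Hspb8 mean was set mostly by knockdown 2, at -6.43 against -4.43 and -5.04 in knockdown 1 and 3, and it was 0.03 within slide 2 and -0.06 with a normexp background. Among the other MAP kinases, Mapk3 had a log2 fold change of -0.01 ± 0.10 and Mapk9, a JNK gene, had -0.01 ± 0.04.

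**Figure D3:**
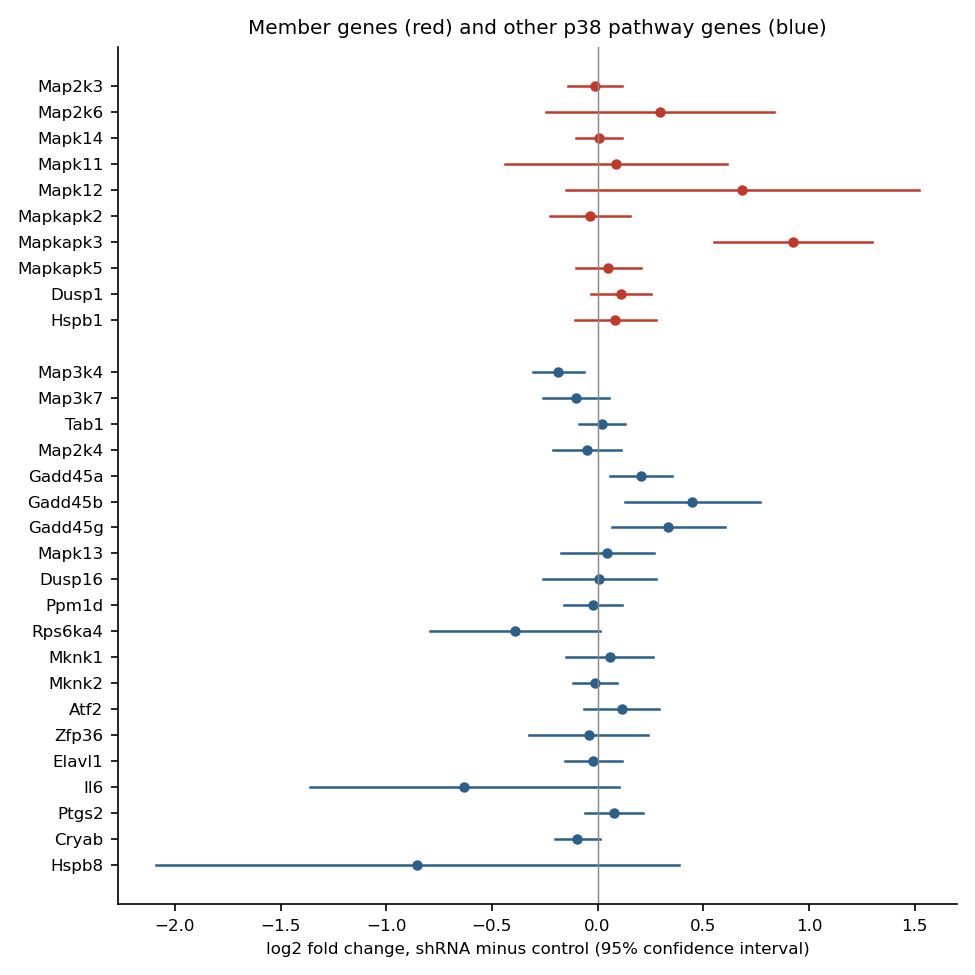
Log2 fold change, knockdown minus control, with its 95% confidence interval from limma (horizontal axis), for the 10 members in red and 20 other p38 pathway genes in blue; the interval of Mapkapk3 is shown for its width only, because the gene was chosen for this difference. The intervals of the other 9 members include 0, and among the blue genes those of Gadd45a, Gadd45b and Gadd45g lie above 0 and that of Map3k4 below it, before any adjustment.

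The genes around Mapkapk3 on its chromosome did not share its difference. The 3 nearest tested genes on each side, in the RefSeq order, had log2 fold changes of -0.11 ± 0.20 (Grm2), -0.04 ± 0.07 (Tex264), -0.10 ± 0.06 (Rad54l2), -0.09 ± 0.13 (Cish), 0.02 ± 0.04 (Hemk1) and -0.32 ± 0.11 (C8h3orf18; SE, 3 against 3 arrays). These genes lay 9 to 11 genes away on one side and 2 to 4 on the other, and none had a mean difference near the 0.92 of Mapkapk3. C8h3orf18 had its knockdown arrays below all controls on the main scale and 0.20 with a normexp background.

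The 5 named genes whose log2 signals over the 6 arrays correlated best with Mapkapk3 were Naa15 (Pearson r = 0.9999), which encodes a subunit of an N-terminal acetyltransferase, Arpc3 (0.9985), a subunit of the Arp2/3 actin nucleator, Sptlc1 (0.9971), of sphingolipid synthesis, Ywhah (0.9968), a 14-3-3 protein, and Phgdh (0.9964), of serine synthesis. Of 10750 named genes, 34 had an r of at least 0.99. With 6 arrays in 2 groups these values are descriptions; the genes were sought among all of these, and arrays of a slide share it. What they share is the order of the controls, control 1 above control 3 above control 2, and 3 nearly equal knockdown arrays. Naa15 had -0.51, -0.85 and -0.67 in the controls and -0.18, -0.14 and -0.12 in knockdown, a log2 fold change of 0.53 ± 0.09 (SE, 3 against 3 arrays). Arpc3, printed in 10 spots, had 2.33, 1.76 and 2.08 in the controls and 2.98, 3.0 and 2.98 in knockdown, with 0.93 ± 0.14. The changes of Sptlc1 and Ywhah were small (both 0.08 ± 0.04), and that of Phgdh was 0.27 ± 0.06. No member was among them: Dusp1 (r = 0.82) and Mapk12 (0.804) came closest, and Mapkapk2 had 0.0687 over 5 arrays. Naa15 held a CACGTG 23 bases before its start, while Sptlc1, Ywhah and Phgdh held none in the 250 bases. Of all promoters 5.59% held one, as did those of Gadd45b and Gadd45g. No match was recorded for Arpc3, whose sequence may not have been among those searched. Any link between the motif and these signals was not tested.

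**Figure D4:**
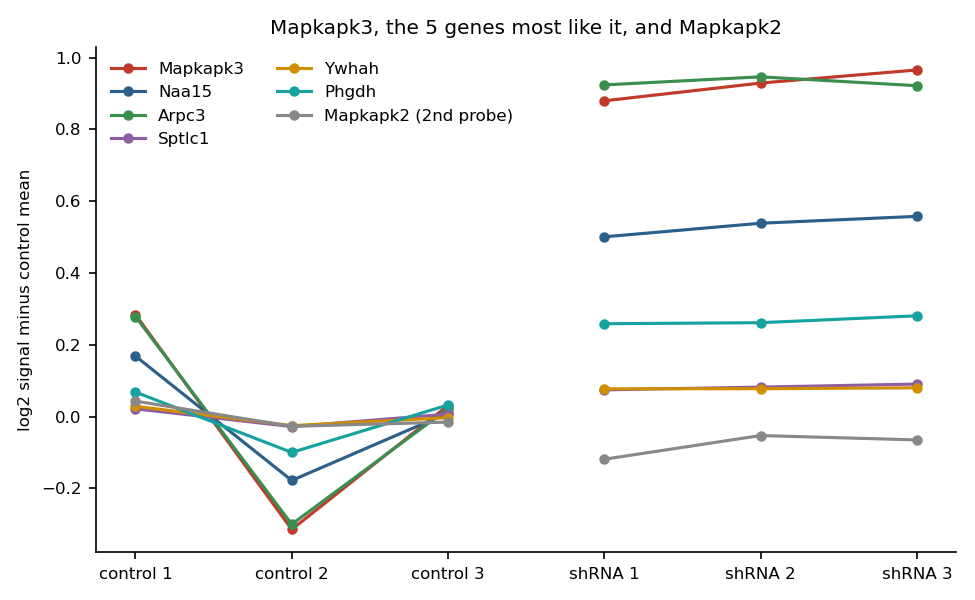
Log2 signal on each array minus the gene's control mean (vertical axis), for Mapkapk3, the 5 genes most correlated with it and the second probe of Mapkapk2; shRNA 1 to 3 are knockdown 1 to 3, and lines only join the arrays of a group, which have no order. Mapkapk3 and Arpc3 run almost together, with control 2 lowest and the knockdown arrays about 0.92 and 0.93 above the control mean, and Mapkapk2 stays near 0.

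The labelled cell type was checked against marker genes. Of 11 fibroblast markers with a probe, 9 were detected on every array, with Col1a1, Col1a2, Col3a1 and Vim among them, while the probes of Dcn and Lum stayed at background on all 6. Markers of other cell types were detected in part. Of the leukocyte markers 2 to 3 of 5 were detected, with Csf1r and Cd68 on every array and Ptprc and Cd3e on none. Of the endothelial markers 2 to 3 of 4 were detected, with Cdh5 (240 to 290 intensity units) and the dim Kdr (20.4 to 30.5) on every array and Pecam1 on none. Of the keratinocyte markers 2 of 5 were detected, the dim Krt5 (29.6 to 47.2 units) and Krt14 (88.4 to 154), while Krt1, Epcam and Cdh1 were not. The skeletal muscle list had 5 of 6 detected, all but Myod1, with Myog (38.6 to 57.0 units) and Des (36.8 to 51.7) dim. The melanocyte and Schwann list had 3 of 3, with Sox10 at 549 to 861 units. Their summed signals overlapped between the groups, although the embryonic myosin gene Myh3 had a log2 fold change of 0.89 ± 0.16, with knockdown above control. A second probe of Myh3 had 0.46 ± 0.72, with overlapping groups. Of 9 tested fibroblast markers, 7 had lower and 2 higher means in knockdown, and 0 passed the adjusted limma test. For Pdgfra (-0.51 ± 0.13), S100a4 (-0.25 ± 0.11) and Vim (-0.11 ± 0.04) all knockdown arrays lay below all controls, as for 11.9% of all features. The summed linear signal of the fibroblast markers, mostly that of the collagen genes, was 451 to 491 in control and 460 to 473 in knockdown arrays, as multiples of the 75th percentile. That of 5 mural cell markers, 4 of them detected, was 1.67 to 1.99 in control and 2.41 to 3.37 in knockdown arrays, without overlap. That sum is mostly Mcam, and the mural markers went both ways. Mcam had 0.77 ± 0.16 and Myh11 0.55 ± 0.15 (0.18 ± 0.06 on its second probe). Kcnj8 had -1.32 ± 0.33 and Abcc9 -1.14 ± 0.10 (-0.50 and -0.24 with a normexp background), and Rgs5 was at background throughout. The part of other cell types in the values above was not tested. In total RNA from a culture, more cells of a kind and more RNA per cell cannot be told apart.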

How the data were processed

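Per the labels' protocols, total RNA of the 6 samples was amplified, labelled (Cy3) and read on Agilent one-colour arrays. The authors deposited scanner output in which each spot's intensity is linear, background-subtracted and detrended, and arrays were not normalized to each other. The program was Feature Extraction: its version is 11.0.1.1 in the file headers, while 11.0.0.1 stands in the submitters' processing notes. Control spots and spots with an outlier flag (386 to 513 per array) were left out, spots of a probe were averaged, and log2 signal minus the array's 75th percentile was used.

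Of 30367 probes, 20776 were tested and 18005 matched a RefSeq symbol (GRCr8, for names and gene order; the array was designed on another build). The brightest probe by mean over the 6 arrays stood for a gene. Groups, taken from the titles, were fitted by lmFit and eBayes (limma 3.58.1, R 4.3.3), with Benjamini-Hochberg adjustment over 18464 features; second probes came from the same fit over all tested probes. On simulated data (18459 features, knockdown against control), 60%, 78% and 97.6% of features changed 1.5-, 2- and 4-fold were called, beside a mean of 6.4 false calls. Each of 5 runs held 50 changed features of each size, and the rates depend on that setting. They are not the power of the real arrays, on which 0 features were called.

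The members and lists were chosen with earlier results of these data known. The text names all members, a fixed subset of the pathway list, the 3 tested neighbours on each side of Mapkapk3, the 5 genes most correlated with it, and pathway genes singled out after their values were seen. Of the fixed subset, Map3k5, Rps6ka5 and Hspa1b had no matched probe, nor had Mapk7 and Mapk8 among the other MAP kinases, of which 1 is not reported here. Alternatives were other scalings, background corrections, filters, probe rules, variance models, array weights and blocks, values within slides, and leaving out each array.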

Additional observations from a re-analysis of the deposited data

How the results depend on the processing

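Mapkapk3 kept its direction in 19 of 19 alternatives, with log2 fold changes from 0.77 to 1.07, which are also the range when an array is left out. No other member was called in any of 18 fits. Over all features 0 were called in 16 of these fits; centring on the median called 1 (Scg2), and array quality weights called 303 higher and 464 lower, Mapkapk3 (0.93) and 1 gene of the pathway list, Gadd45g, among the higher. Mapkapk3 was chosen on these arrays, so this is no support. The weights were 3.79 for knockdown 3, 1.88 for control 3 and 0.464 to 1.14 for the rest. Members near 0 turned sign. Mapk14 had -0.00095 with quantile scaling, -0.028 with normexp and -0.010 within slide 1, and -0.013 to 0.029 when an array was left out. Map2k3 had 0.0094 with median centring, 0.010 with normexp and quantile scaling and 0.063 within slide 2 (-0.039 to 0.019 with an array left out). Mapk11 had -0.21 with array weights (-0.093 to 0.26), and Mapkapk2 0.0010 within slide 1 (-0.084 to 0.014). The median of the pathway list was 5.14e-05 with quantile scaling, 0.0025 with median centring, 0.013 with normexp, -0.00044 with normexp and quantile scaling, and -0.047 within slide 1. Normexp moved the median of all features to 0.054, and dim probes further: Dcn and Lum, at background throughout, had 0.42 and 0.44. With normexp alone Map2k6 had 0.34 and the second probe of Mapk11 had 0.36, against 0.30 and 0.08 on the main scale. The causes of these shifts were not tested. Same-numbered arrays had residual correlations of 0.097, 0.261 and -0.29, so the numbers were not taken as pairs. Between the groups, arrays of the same slide had -0.087 to 0.444 and those of different slides -0.421 to 0.097. The main fit holds no slide term. Fitted with a replicate block, the Mapkapk3 value stayed 0.92 and 0 features were called, and with slide as a block likewise. Depth on an array is signal over background, which limits Mapk12, Map2k6 and the second probe of Mapk11.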
